A study of Sus scrofa with 3 samples.

Results

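MX1, IFI44, USP18, GBP2 and TAP2 are 5 genes of the interferon and antigen presentation programme, examined here among 25322 Ensembl gene IDs counted in pig liver. They were selected on measured values: each stood out in an earlier analysis of these same counts by its fold between libraries, so those folds are given as a description with no test. Liver RNA came from 3 male pigs at postnatal day 90, 1 of each of 3 breeds: Enshi black, Large White and Chinese wild boar. The animals carried no treatment or engineered allele in the labels, which mention no pooling, and each breed has 1 library. Breed, animal and library therefore cannot be told apart, and no difference has a replicate check. All 5 genes were matched by gene ID and all 5 passed a filter of 1 CPM or more (CPM is a count scaled to a shared library size) in any library, as did 13228 gene IDs in all.

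Interferons are secreted proteins that cells release when they sense viral or other foreign nucleic acid. Type I interferons act through receptor-bound kinases on transcription factors that include STAT2 and IRF9, which switch on antiviral genes such as MX1 and IFI44. Interferon gamma, made mainly by T cells and NK cells, acts partly through IRF1 on guanylate binding proteins and on genes of antigen presentation. In liver, hepatocytes, Kupffer cells and endothelial cells can all respond. The name of the group comes from this background: no animal was given interferon according to the labels.

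Gene counts per library totalled 19982627 (Large White), 20215871 (Chinese wild boar) and 20654571 (Enshi black). At this depth 1 count was worth 0.0464 to 0.0510 CPM after scaling with TMM factors, which adjust library totals for composition. Hepatocyte genes were abundant, as described further on for ALB (albumin), although the ID matched to APOA1, another abundant hepatocyte product, had only 0 to 2 counts. In the Enshi black library, 47 gene IDs had 3 counts or fewer although both other libraries reached 5 CPM. For each other library there was 1 such ID. None of the 5 genes was among them. Folds are ratios of scaled counts with a 95% exact binomial interval in parentheses, which covers counting error only and not the spread between animals. The size rule asked that the whole interval lie at or beyond a 2-fold difference, that is, a bound no smaller than 2 for higher genes and no larger than 0.5 for lower ones.

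Levels of MX1, IFI44, USP18 and TAP2 were lowest in Large White, whereas GBP2 was lowest in Chinese wild boar. MX1, IFI44 and USP18 were about 2 to 3 times as high in both other libraries as in Large White, and TAP2 about 4 times. GBP2 was alike in Enshi black and Large White within counting error. The 5 genes thus did not share 1 pattern across the libraries.

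**Figure D1:**
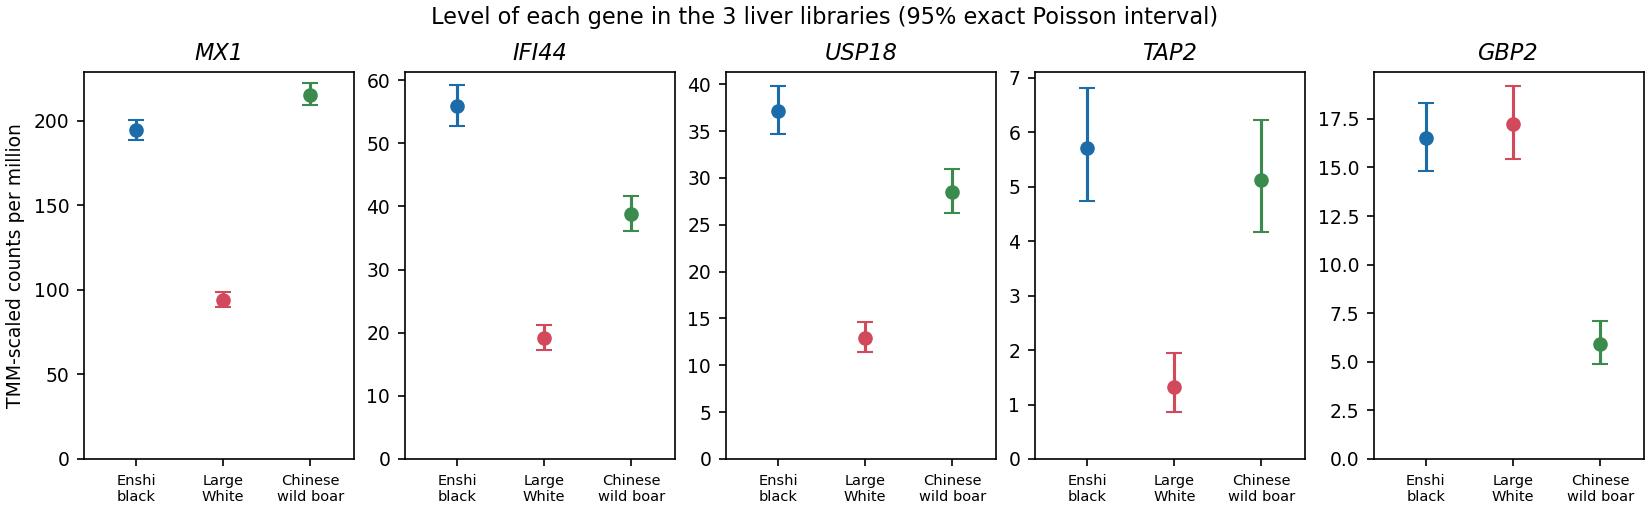
Level of MX1, IFI44, USP18, TAP2 and GBP2 in each liver library, in TMM-scaled CPM on axes that start at 0. Points are single libraries and bars are 95% exact Poisson intervals (counting error only). Large White is lowest in the panels of MX1, IFI44, USP18 and TAP2, and Chinese wild boar is lowest for GBP2.

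MX1 encodes a dynamin-like GTPase that blocks the replication of influenza and other viruses. Its counts were 4195 (Enshi black), 1845 (Large White) and 4252 (Chinese wild boar). These correspond to 195 CPM (189 to 200, exact Poisson interval), 94.1 CPM (89.9 to 98.5) and 215 CPM (209 to 222). Large White was clearly below the others, which lay close together. The fold of MX1 was 2.29 (2.17 to 2.42) for Chinese wild boar relative to Large White and 2.07 (1.96 to 2.18) for Enshi black relative to Large White. The latter fell just short of the size rule and passed it, at 2.20 (2.08 to 2.32), when total counts replaced TMM. Enshi black and Chinese wild boar gave 0.903 (0.865 to 0.943) with TMM and 0.966 (0.925 to 1.01) with total counts, so their order was not clear of the scaling.

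IFI44 encodes a cytoplasmic protein induced by type I interferon, with reported antiviral and antiproliferative activity. It had 1206, 375 and 767 counts in Enshi black, Large White and Chinese wild boar. On the CPM scale the levels were 55.9 (52.8 to 59.2), 19.1 (17.2 to 21.2) and 38.9 (36.2 to 41.7), and no pair of intervals overlapped. Enshi black was the highest, 2.92-fold (2.60 to 3.29) above Large White and 1.44-fold (1.31 to 1.58) above Chinese wild boar. Chinese wild boar lay 2.03-fold (1.79 to 2.30) above Large White, with the near bound inside the size rule's limit.

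USP18 encodes the protease that removes the ubiquitin-like protein ISG15 from its targets, and it also restrains signalling at the type I interferon receptor. It had 802, 254 and 563 counts in the same order of libraries, or 37.2 CPM (34.7 to 39.9), 13.0 CPM (11.4 to 14.7) and 28.5 CPM (26.2 to 31.0). The order of the 3 libraries was that of IFI44, again without overlap of intervals. The fold of USP18 was 2.87 (2.49 to 3.32) for Enshi black relative to Large White. It was 2.20 (1.89 to 2.56) for Chinese wild boar relative to Large White and 1.30 (1.17 to 1.45) between Enshi black and Chinese wild boar.

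TAP2 encodes a subunit of the transporter that carries peptides into the endoplasmic reticulum for loading onto MHC class I. It was the least counted of the 5, with 123 counts (Enshi black), 26 (Large White) and 101 (Chinese wild boar). Its levels were 5.70 CPM (4.74 to 6.80), 1.33 CPM (0.867 to 1.94) and 5.12 CPM (4.17 to 6.22). Large White stood well below, and the intervals of the other libraries overlapped. TAP2 was 4.30-fold (2.80 to 6.84) higher in Enshi black and 3.86-fold (2.49 to 6.19) higher in Chinese wild boar than in Large White. The ratio of Enshi black to Chinese wild boar was 1.11 (0.850 to 1.47), so a difference between them was not detectable at this depth.

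GBP2 encodes a guanylate binding protein, a large GTPase that attacks the compartments of intracellular pathogens and is strongly induced by interferon gamma. It had 356, 338 and 117 counts, equal to 16.5 CPM (14.8 to 18.3), 17.2 CPM (15.5 to 19.2) and 5.93 CPM (4.90 to 7.10) in that order of libraries. Here Chinese wild boar stood alone at the low end. GBP2 was 2.91-fold (2.35 to 3.62) lower in Chinese wild boar than in Large White and 2.79-fold (2.25 to 3.46) lower than in Enshi black. Between Enshi black and Large White the fold was 0.957 (0.822 to 1.11), and it lay above 1, at 1.02, with total counts.

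**Figure D2:**
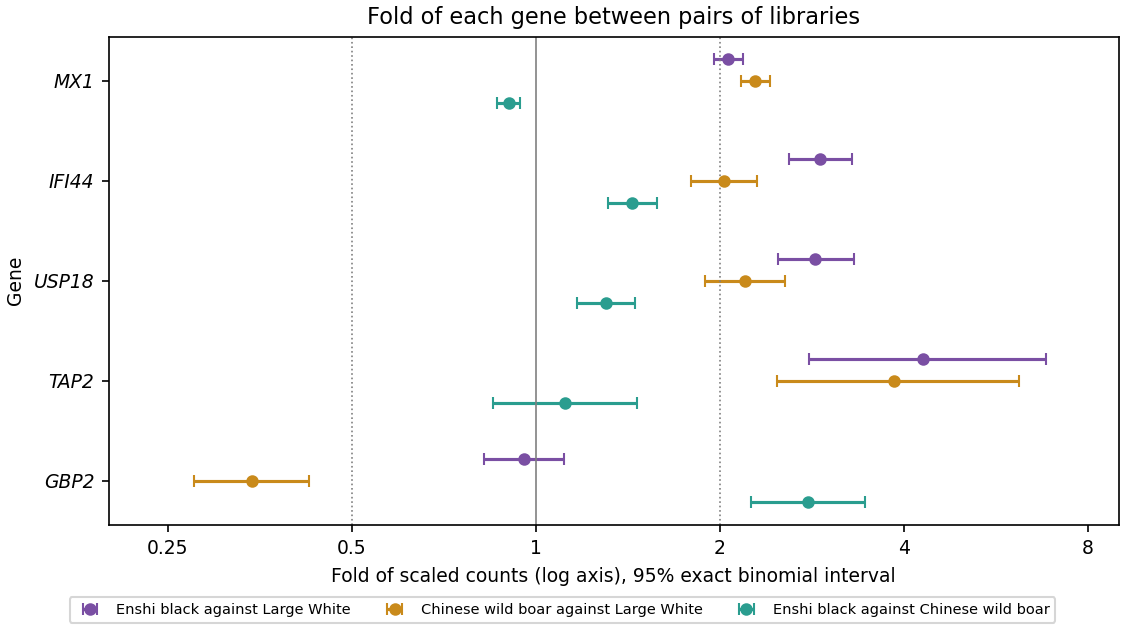
Fold of scaled counts for the 5 genes in each pair of libraries, on a log axis, with 95% exact binomial intervals (counting error only). The solid line marks equal levels and the dotted lines mark folds of 2 and 0.5. Folds of TAP2 against Large White lie farthest to the right, and the fold of GBP2 for Chinese wild boar relative to Large White lies to the left of 0.5.

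By the size rule, 3 of the 5 genes (IFI44, USP18 and TAP2) passed as higher in the Enshi black than the Large White library and none as lower, where 4.76% and 8.34% of the 13228 expressed gene IDs passed. For Chinese wild boar relative to Large White, MX1 and TAP2 passed as higher and GBP2 as lower, against 2.99% and 3.71% of expressed IDs. For Enshi black relative to Chinese wild boar only GBP2 passed, as higher, against 3.99% of expressed IDs higher and 7.13% lower. Because the genes were chosen from these folds, nothing is read from these counts. The comparisons share libraries, so a low value in Large White enters both folds against it.

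The antiviral effectors around MX1 and IFI44 were examined through a list of 48 other interferon-induced genes, of which 29 had a matched ID and 28 were expressed. Their median log2 fold was 0.47 for Enshi black relative to Large White, 0.17 for Chinese wild boar relative to Large White and 0.17 for Enshi black relative to Chinese wild boar. Over all expressed IDs the same medians were 0.02, 0.01 and 0.01. In Enshi black relative to Large White, 3 of 28 passed as higher and 1 as lower, against 4.76% and 8.34% of expressed IDs. With total counts, 5 passed as higher, as did 772 of all expressed IDs. None of the 28 passed for Chinese wild boar relative to Large White, against 2.99% of expressed IDs higher and 3.71% lower. In that pair 17 lay above 0, as did 6689 of the 13228 expressed IDs. Between Enshi black and Chinese wild boar, 2 passed as higher and 1 as lower, against 3.99% and 7.13% of expressed IDs.

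DDX60, a helicase linked to sensing of viral RNA, had the highest fold of these effectors between Enshi black and Large White. It had 891, 101 and 242 counts in Enshi black, Large White and Chinese wild boar, and was 8.02-fold (6.52 to 9.95) higher in the Enshi black than the Large White library and 3.37-fold (2.92 to 3.90) higher than in Chinese wild boar. OAS2, which makes the second messenger that activates RNase L, had 332, 153 and 246 CPM. This is the order of IFI44 and USP18, and OAS2 was 2.17-fold (2.08 to 2.26) higher in the Enshi black than the Large White library. PARP14, an ADP-ribosyltransferase, had 2603, 983 and 659 counts and Enshi black exceeded Large White by 2.41-fold (2.24 to 2.59) and Chinese wild boar by 3.62-fold (3.32 to 3.94). SAMHD1, an enzyme that depletes deoxynucleotides and so restricts retroviruses, went the other way. It had 474 counts in Enshi black against 1400 in Large White and 1517 for Chinese wild boar, 3.25-fold (2.93 to 3.61) and 3.50-fold (3.15 to 3.88) lower.

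A simple count of orders across the 3 libraries was added after the values had been seen. A library counted as lowest when the intervals of its folds against both others lay on the same side of 1. Such intervals narrow as counts rise, and the shares of all expressed IDs were not matched to the lists for count. Large White was lowest for 4 of the 5 genes, for 12 of the 28 effectors (42.9%) and for 18.2% of all expressed IDs. Enshi black was highest by the same standard for IFI44 and USP18, for 13 of the 28 effectors (46.4%) and for 22.4% of all expressed IDs. Chinese wild boar was lowest for GBP2, for 5 of the 28 effectors (17.9%) and for 13.3% of all expressed IDs.

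In RefSeq's Sscrofa11.1 gene order, which is not the build of the counts and is used only for neighbours, MX1 lies beside MX2 and IFI44 beside IFI44L. MX2, the paralogue of MX1, had 709, 921 and 1174 counts in Enshi black, Large White and Chinese wild boar. Unlike MX1 it was lower in Enshi black relative to Large White, by 1.43-fold (1.29 to 1.58), and only 1.27-fold (1.16 to 1.38) higher in Chinese wild boar. IFI44L had 924, 491 and 769 counts, with Large White lowest as for IFI44. Its folds against Large White were smaller, at 1.71 (1.53 to 1.91) in Enshi black and 1.55 (1.39 to 1.74) in Chinese wild boar. The other neighbour of MX1, TMPRSS2, a serine protease that activates viral surface proteins, had 87, 286 and 202 counts, highest in Large White. FAM3B, next to MX2, had 15, 1 and 2 counts. ADGRL4, an endothelial receptor and the other neighbour of IFI44, had 220, 154 and 137 counts. CPNE8, a calcium-binding protein and a neighbour of USP18, had 176, 216 and 103 counts.

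USP18 acts opposite the enzymes that attach ISG15: the activating enzyme UBA7, the conjugating enzyme UBE2L6 and the ligases HERC5, HERC6 and TRIM25. The ISG15 gene itself had no matched ID and is not analysed here. All 5 enzymes were expressed and none passed the size rule in any pair, where 2.99% to 8.34% of expressed IDs passed in each direction. By the order rule, Large White was lowest for 3 of the 5 and Enshi black highest for 3, against 18.2% and 22.4% of expressed IDs. Their median log2 fold was 0.52 for Enshi black relative to Large White, 0.18 for Chinese wild boar relative to Large White and 0.34 for Enshi black relative to Chinese wild boar. UBE2L6 had 974, 616 and 703 counts, a fold of 1.44 (1.30 to 1.59) for Enshi black relative to Large White. TRIM25 had 1100, 765 and 980 counts and a fold of 1.31 (1.19 to 1.43). HERC5 and HERC6 stood at 1.72 (1.41 to 2.11) and 1.65 (1.43 to 1.90) in that pair, and UBA7 at 1.13 (1.0 to 1.28). Each of these folds was smaller than the 2.87 of USP18, but USP18 was selected by its fold, so nothing is read from that contrast.

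TAP2 works with TAP1, tapasin (TAPBP), the immunoproteasome and its activator PSME1 and PSME2, and the trimming enzymes ERAP1 and ERAP2. Of 23 other genes of MHC class I antigen processing, 13 had a matched ID and 10 were expressed. Only PSME1 passed, as higher in the Enshi black than the Large White library, against 4.76% of expressed IDs. None of the 10 passed in the other pairs, where 2.99% to 7.13% of expressed IDs passed in each direction. The median log2 fold was 0.37 for Enshi black relative to Large White, -0.19 for Chinese wild boar relative to Large White and 0.42 for Enshi black relative to Chinese wild boar.

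PSME1, a subunit of the proteasome activator PA28, had 5184, 1693 and 3425 counts in Enshi black, Large White and Chinese wild boar. Its fold was 2.78 (2.63 to 2.94) for Enshi black and 2.01 (1.89 to 2.13) for Chinese wild boar, each against Large White. PSME2, the partner subunit, had 1357, 735 and 1616 counts and folds of 1.68 (1.53 to 1.84) and 2.18 (1.999 to 2.39), the latter just short of the size rule. PSME1 and PSME2 were thus lowest in Large White, as TAP2 was. They were the only 2 of the 10 genes with that order by the order rule, against 18.2% of expressed IDs. Chinese wild boar was lowest for 5 of the 10, TAPBP among them, against 13.3% of expressed IDs. The peptide-loading genes differed less: TAPBP had 3062, 2831 and 2509 counts, and the chaperone CALR 27162, 29063 and 25401. The disulfide isomerase PDIA3 had 19399, 12722 and 11748 counts, highest in Enshi black at 1.39-fold (1.36 to 1.42) that of Large White.

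The genes next to TAP2 in the MHC region were almost without counts. TAP1, the other half-transporter, had 1, 0 and 0 counts, and the immunoproteasome subunit PSMB8 had 0 in all 3 libraries, for which the exact Poisson upper bound was 0.171 to 0.188 CPM. PSMB9 had 8, 5 and 9 counts. The class I heavy chains and B2M had no matched ID. How reads that align to several places were treated is not given in the sources used here, and the MHC region holds near-identical copies and overlapping genes, so the TAP2 level is uncertain to that extent. Whether this bears on the TAP2 difference was not tested.

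GBP2 was set beside 7 other expressed genes of guanylate binding proteins and interferon gamma targets, from 16 symbols of which 7 matched an ID. CIITA, IRF1 and SOCS1 of this list also belong to the lists of MHC class II or of signalling genes, and HERC5, HERC6 and TRIM25 to both the effectors and the ISG15 enzymes. Chinese wild boar was lowest for 6 of the 7 by the order rule, against 13.3% of expressed IDs. The median log2 fold was -1.23 for Chinese wild boar relative to Large White, 1.17 for Enshi black relative to Chinese wild boar and -0.19 for Enshi black relative to Large White. For Chinese wild boar relative to Large White, 2 passed as lower and none as higher, against 3.71% and 2.99% of expressed IDs. In Enshi black relative to Chinese wild boar, 4 of the 7 passed as higher, against 3.99% of expressed IDs. For Enshi black relative to Large White, 1 passed in each direction, against 4.76% of expressed IDs higher and 8.34% lower.

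GBP1, the neighbour and paralogue of GBP2, had 107, 80 and 31 counts in Enshi black, Large White and Chinese wild boar. It was 2.60-fold (1.70 to 4.07) lower in Chinese wild boar than in Large White and 3.16-fold (2.10 to 4.88) higher in Enshi black than in Chinese wild boar. IRF1, the transcription factor that relays interferon gamma signals to such genes, had 1340, 2616 and 545 counts. It was 4.83-fold (4.41 to 5.31) lower in Chinese wild boar and 2.15-fold (2.01 to 2.30) lower in Enshi black relative to Large White, and the latter did not pass with total counts. IDO1, a tryptophan-degrading enzyme induced by interferon gamma, had 30, 76 and 5 counts and was 15.3-fold (6.28 to 48.5) lower in Chinese wild boar than in Large White. CIITA, the master activator of MHC class II, had 186, 205 and 87 counts, a pattern like that of GBP2. CXCL11, a chemokine that draws T cells, had 195, 44 and 62 counts, highest in Enshi black, with a fold of 4.03 (2.89 to 5.72) over Large White and 1.40 (0.935 to 2.11) between Chinese wild boar and Large White.

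Among 5 expressed MHC class II genes, CIITA included, the median log2 fold was -0.67 for Chinese wild boar relative to Large White. None passed in that pair, against 2.99% of expressed IDs higher and 3.71% lower. SLA-DMA, which helps load class II peptides, was 2.36-fold (2.02 to 2.76) higher in Enshi black than in Chinese wild boar, with 585 against 227 counts. SLA-DQB1, a class II chain, had 2072, 1897 and 2030 counts and differed little between the libraries.

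**Figure D3:**
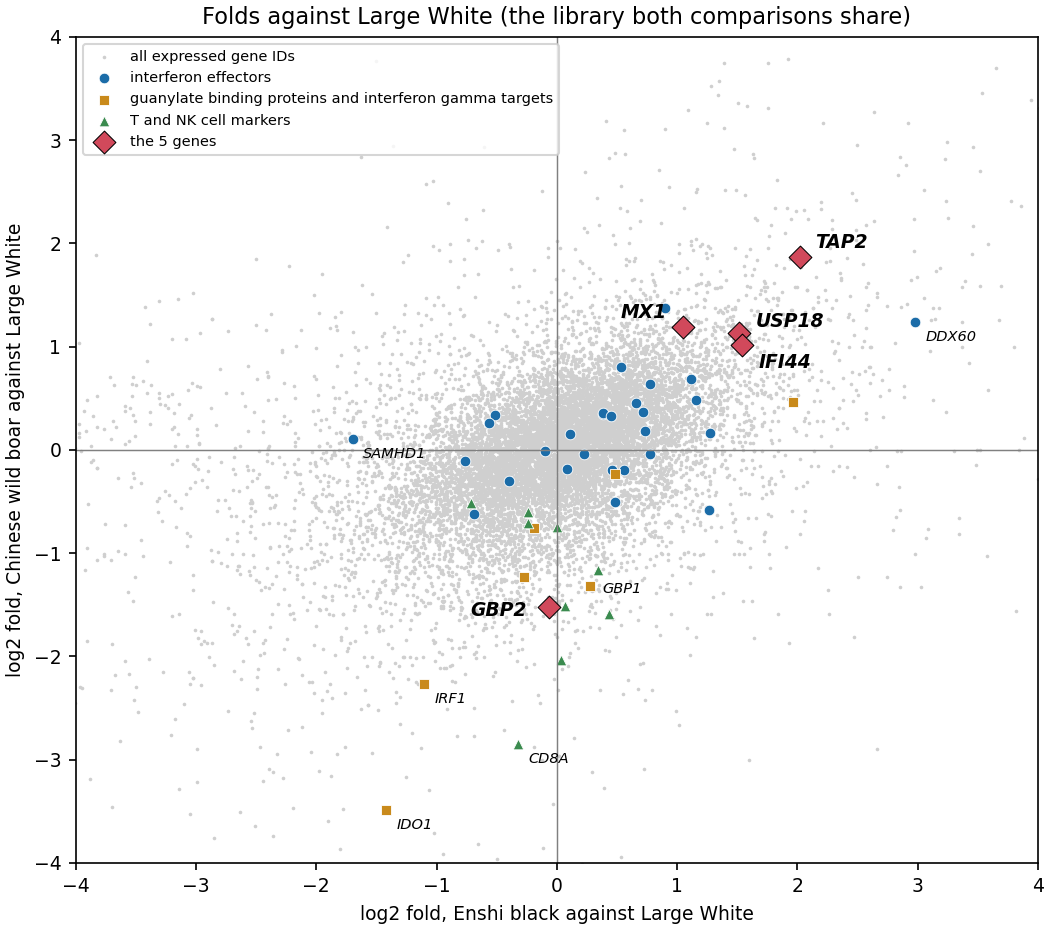
Log2 fold of each expressed gene ID for Enshi black relative to Large White (x axis) and for Chinese wild boar relative to Large White (y axis), both with a prior count of 2; the axes share the Large White library, and 293 IDs lie outside the range of 4. MX1, IFI44, USP18 and TAP2 lie in the upper right, and GBP2 lies near 0 on the x axis and at -1.52 on the y axis, close to GBP1 and several T and NK cell markers.

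Most markers of T and NK cells, which make interferon gamma, were lowest in the same library as GBP2. Of 14 such markers, 10 IDs matched and 9 were expressed. Chinese wild boar was lowest for 7 of the 9 by the order rule, against 13.3% of expressed IDs. The summed level of the 9 was 174 CPM (Enshi black), 193 (Large White) and 95.03 (Chinese wild boar). In that order of libraries, the exceptions were CCL5, lowest in Enshi black with 624, 932 and 655 counts, and GZMA. The expressed GZMA ID had 64, 69 and 45 counts, and no library was lowest by the rule. For Chinese wild boar relative to Large White, 4 of 9 passed as lower and none as higher, against 3.71% and 2.99% of expressed IDs. The median log2 fold of the 9 in that pair was -1.17. CD8A, the coreceptor of cytotoxic T cells, had 413, 471 and 64 counts, and the T cell kinase LCK had 385, 341 and 82. CD3D, part of the T cell receptor complex, had 181, 121 and 39 counts, the adhesion receptor CD2 670, 479 and 214, and the pore-forming protein PRF1 236, 205 and 71. No marker among the 9 was at 0, although another ID matched to GZMA had 0, 4 and 0 counts. In bulk tissue, fewer cells of a type and less RNA per cell cannot be told apart, and the part of these markers in the GBP2 difference was not tested.

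The level of ALB, the main protein product of hepatocytes, was lowest in Large White, as for MX1, IFI44, USP18 and TAP2. ALB stood at 66555, 25234 and 53772 CPM, with folds over Large White of 2.64 (2.63 to 2.65) in Enshi black and 2.13 (2.12 to 2.14) in Chinese wild boar. Of 5 expressed hepatocyte markers it was the only one that passed in either pair. Over all expressed IDs, 4.76% (Enshi black) and 2.99% (Chinese wild boar) passed as higher. ALB was also the only 1 of the 5 with Large White lowest by the order rule (20%), close to the 18.2% of expressed IDs. TTR, the thyroid hormone carrier transthyretin, was highest in Large White, with 54878, 80258 and 69199 counts, as was the urea cycle enzyme CPS1, with 22093, 26935 and 24814. The part of hepatocyte RNA in the differences of the 5 genes was not tested.

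Other cell type markers did not follow a single library. Of 8 expressed Kupffer cell and macrophage markers, 3 passed as lower in Enshi black relative to Large White (CSF1R, MARCO and LYZ) and 1, MARCO, in Chinese wild boar. Over all expressed IDs, 8.34% and 3.71% passed as lower in these pairs. The summed level of the 8 markers was 1716, 2090 and 1822 CPM. Large White was highest by the order rule for 5 of the 8, against 19.0% of expressed IDs. The exceptions were MRC1, a mannose receptor, with 4099, 2460 and 1225 counts, C1QA, a complement subunit, with 11830, 10197 and 10221, and CD68, a lysosomal protein, with 1163, 1196 and 1399. Of 5 expressed endothelial markers, the scavenger receptor STAB1 passed as lower in Enshi black and in Chinese wild boar than in Large White. KDR passed as higher in Enshi black than in Chinese wild boar. Over all expressed IDs, 8.34% and 3.71% passed as lower in the former pairs and 3.99% as higher in the latter. The endothelial sum was 540, 782 and 416 CPM, of which STAB1 alone made up 186, 498 and 169 CPM. By the order rule, Large White was highest for 2 of the 5 and lowest for 2, against 19.0% and 18.2% of expressed IDs. Of 2 expressed neutrophil markers, CSF3R had 130, 662 and 89 counts, and the pair summed to 6.58, 35.1 and 5.83 CPM.

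Among 3 expressed dendritic cell markers, XCR1, a chemokine receptor of cross-presenting dendritic cells, was lowest in Large White, with 128, 34 and 77 counts. It was 3.42-fold (2.33 to 5.15) higher in Enshi black and 2.25-fold (1.48 to 3.47) higher in Chinese wild boar than in Large White. FLT3, a growth factor receptor of dendritic cell precursors, had 37, 12 and 34 counts and folds of 2.80 (1.43 to 5.90) and 2.81 (1.42 to 5.97). Both were lowest in Large White, as TAP2 was. TCF4, the remaining expressed marker, was instead lowest in Chinese wild boar, with 334, 277 and 173 counts. Its fold for Chinese wild boar relative to Large White was 0.620 (0.510 to 0.752). The summed level of the 3 markers was 23.1, 16.5 and 14.4 CPM, led by TCF4. BATF3, a defining factor of these cells, had 0 counts in all libraries. Of 5 expressed B and plasma cell markers, 3 passed as higher in Enshi black relative to Large White, MS4A1 and CD79B among them, and POU2AF1 passed as lower. Over all expressed IDs, 4.76% and 8.34% passed in these directions. Between Enshi black and Chinese wild boar, 4 passed as higher and 1 as lower, against 3.99% and 7.13% of expressed IDs. The sums were 21.0, 20.4 and 17.4 CPM, in which the opposite order of POU2AF1 (1.85, 8.78 and 13.5 CPM) offset the other markers. The part of these cell type markers in the differences of the 5 genes was not tested.

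Few interferon ligand genes could be examined, because most of their symbols matched no ID. Of 11 interferon ligand symbols, 4 matched an ID (IFNB1, IFNK, IFNE and IFN-DELTA-1), and each had 0 counts in every library, with the same upper bound of 0.171 to 0.188 CPM. IFNG, the gene of interferon gamma, had no matched ID and is not analysed here. IFNGR1, a subunit of the interferon gamma receptor and the receptor gene that matched, had 617, 329 and 370 counts. Its fold was 1.70 (1.49 to 1.95) for Enshi black and 1.12 (0.960 to 1.30) for Chinese wild boar, each against Large White.

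Of 13 expressed receptor and signalling genes, none passed as higher than in Large White, and IRF1 passed as lower in both comparisons with it. Over all expressed IDs, 4.76% (Enshi black) and 2.99% (Chinese wild boar) passed as higher, and 8.34% and 3.71% as lower. STAT2, a factor of type I signalling, had 3224, 2930 and 2727 counts, and Enshi black and Large White differed by less than counting error. IRF9, which binds DNA together with STAT2, had 1580, 1585 and 1839 counts, and IRF7, which amplifies interferon production, 1740, 1376 and 1740.

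Sensors of nucleic acid are partly interferon-induced themselves. Of 15 expressed, 2 passed as higher and 1 as lower in Enshi black relative to Large White, against 4.76% and 8.34% of expressed IDs. The median log2 fold of the 15 in that pair was -0.003. RIGI, a cytosolic RNA sensor, had 2186, 868 and 939 counts and was 2.29-fold (2.11 to 2.48) higher in the Enshi black than the Large White library. TLR3, an endosomal receptor for double-stranded RNA, had 477, 164 and 202 counts and a fold of 2.64 (2.21 to 3.18). MYD88, the adaptor of most Toll-like receptors, was 2.26-fold (2.03 to 2.52) lower in Enshi black, and did not pass with total counts. TLR8, a sensor of single-stranded RNA found in myeloid cells, had 189, 142 and 47 counts and was 3.04-fold (2.17 to 4.33) lower in Chinese wild boar than in Large White, the direction of GBP2. Between Enshi black and Chinese wild boar, TLR8 alone passed, as higher, against 3.99% of expressed IDs. With total counts RIGI passed too.

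**Figure D4:**
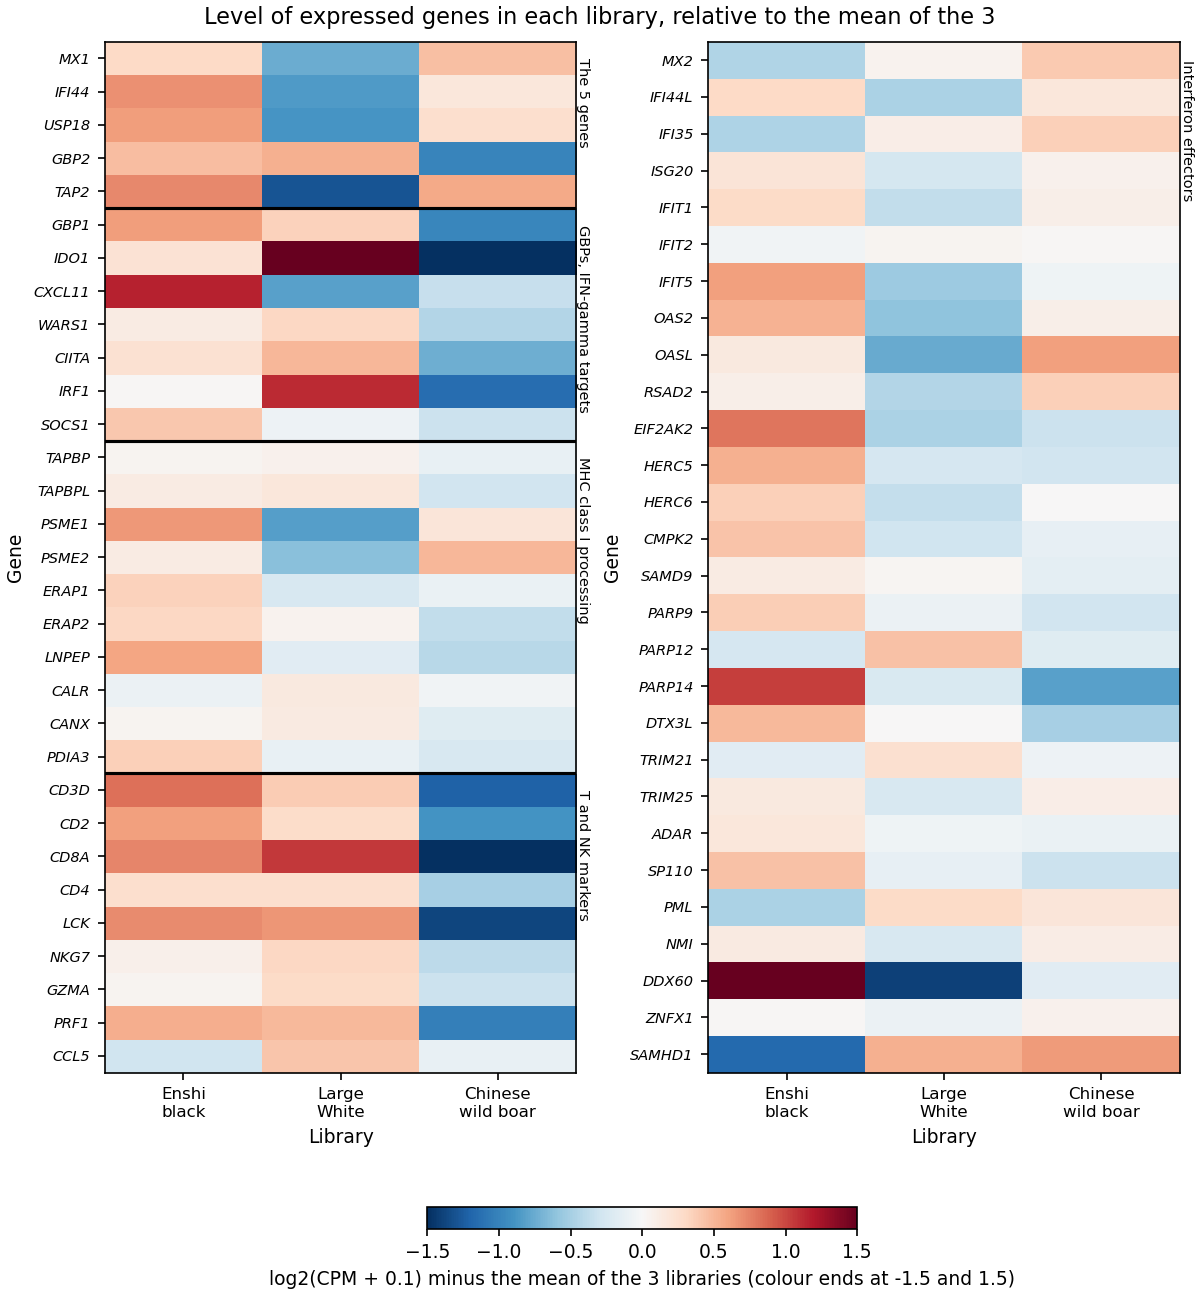
Level of each expressed gene in the 3 libraries, as log2(CPM + 0.1) minus the mean of the 3, with colours that end at -1.5 and 1.5. The left panel holds the 5 genes, guanylate binding proteins and interferon gamma targets, MHC class I processing and T and NK cell markers, and the right panel holds interferon effectors. MX1, IFI44, USP18 and TAP2 are blue in Large White, whereas GBP2, GBP1, IRF1 and most T and NK cell markers are blue in Chinese wild boar.

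Genes with the most similar pattern were ranked by the distance between their log2 folds (Enshi black and Chinese wild boar, each against Large White) and the mean of the 5 genes, over expressed genes with a symbol and a mean of at least 5 CPM. The nearest 8 were SLC35F5, MMGT1, RPS16, UGP2, SYNGR1, TRIP12, CKS2 and SPARC, at distances of 0.0193 to 0.0460. None of them is on an interferon list. The 5 genes themselves lay 0.433 (IFI44) to 2.60 (GBP2) from their own mean, so that mean describes no single one of them. With the mean of MX1, IFI44, USP18 and TAP2 alone, a choice made after seeing the values, the nearest were RCN1, VSNL1, PRELP, RAB28, MDM2, DNAJC22, KLHL8 and COX15, at 0.0837 to 0.123.

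Nearest to GBP2 alone, also added afterwards, were L1CAM, TAGAP, FJX1, SASH3, PRF1, C3, MYO1G and MYO7A, at 0.0596 to 0.182. PRF1 is a T and NK cell marker of the fixed list, and TAGAP, SASH3 and MYO1G are known for expression in lymphocytes or other blood cells. TAGAP had 220, 206 and 76 counts and SASH3 624, 643 and 224, against 356, 338 and 117 for GBP2. Each ranking was among 6719 genes, and with 3 libraries a distance rests on only a pair of folds.

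Gene span also differed with the Enshi black values. Over 10 groups of genes by RefSeq span, the median log2 difference between Enshi black and the mean of the other libraries was -0.23 among the shortest genes, 0.13 in the ninth group and 0.07 among the longest genes. For the groups that hold the 5 genes these medians were -0.21 (IFI44 and TAP2), -0.15 (GBP2), -0.09 (MX1) and 0.04 (USP18). Folds are not corrected for span, and its part in the differences of the 5 genes was not tested.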

How the data were processed

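Liver RNA of 3 pigs, 1 library per breed, was sequenced as paired-end reads. The deposited tables hold whole-number read counts per Ensembl gene ID, not normalized, 1 table per library. Per the submitters' processing notes, the authors used TopHat2 2.1.0, HTSeq 0.6.1 and edgeR 3.16.3 with build Sscrofa10.2; the sources used here do not give the annotation release, strand setting or treatment of multiply aligned reads. Genes that overlap or have close copies (MX1 and MX2, the GBP family, the MHC region) are therefore uncertain. Rows naming no gene were left out: reads with no feature made up 18.9% to 22.0% and ambiguous reads 1.89% to 2.49%. Symbols were matched by gene ID.

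Counts were scaled with TMM factors over all genes (edgeR 4.0.16, R 4.3.3; factors 1.04, 0.981 and 0.976). With 1 library per breed no test across animals was possible. Folds carry 95% exact conditional binomial intervals and levels exact Poisson intervals (scipy 1.17.1). Both cover counting error only, as 1 library per breed gives no spread between animals. No molecular identifiers are described, and duplicate reads were not assessed. The size rule asked for a near bound of 2, among IDs that reached 1 CPM in any library. Log2 folds used a prior count of 2.

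The 5 genes and the gene lists around them were chosen with earlier results of these data known. Named genes were the 5, the list members that passed (up to 6 per list) or up to 2 abundant ones, detected ligands and receptors, and the 8 nearest in pattern. Chromosomal neighbours, the remaining partners of USP18 and TAP2, STAT2, IRF9, CIITA, TTR, CPS1, C1QA, CD68, TCF4, IRF7, FLT3, BATF3 and SLA-DQB1 were named after their values were seen. CCL5 and GZMA were also named afterwards. Alternatives were DESeq2 1.42.0 size factors, total counts, other filters, bounds, intervals and prior counts. A planned search of promoters for interferon motifs was not run, because promoter sequences were not used here. Some genes of the lists are not reported here.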

Additional observations from a re-analysis of the deposited data

How the results depend on the processing

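Between scalings, 29 of 30 alternative folds of the 5 genes stayed on their side of the size rule; MX1 in Enshi black against Large White passed with total counts, at 2.20. Total counts moved the median log2 fold of all expressed IDs to 0.10 for Enshi black against either other library. Of the 5 genes, 0 passed in any pair at a near bound of 4, and 0 passed when spread between animals was assumed at a coefficient of variation of 0.4, which was not measured. With a near bound of 1.5, 4 genes passed as higher in Chinese wild boar than in Large White; with a wider interval of higher confidence (the stricter interval) 1 did, and 0 passed between Enshi black and Chinese wild boar.

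Counts over all expressed IDs are given as higher and lower. For Enshi black against Large White they were 629 and 1103. They became 1549 and 1952 at a bound of 1.5, 150 and 442 at 4, 133 and 413 with the assumed variation, 356 and 631 with a 10 CPM filter, and 409 higher with the stricter interval. For Chinese wild boar against Large White they were 396 and 491, then 996 and 1122, 88 and 113, and 74 and 103 for the first 3 of these settings. There, 271 were lower with the 10 CPM filter and 304 with the stricter interval. For Enshi black against Chinese wild boar they were 528 and 943, then 1296 and 1683, 117 and 390, 114 and 366, and 274 and 547, with 312 higher with the stricter interval. The cause of shifts was not tested beyond what each setting changes by construction.

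Of 210 alternative list medians, 182 moved by less than 0.1 and 13 changed sign, and 322 of 336 list counts stayed within 1.5 times. Of the 8 genes nearest in pattern, 6 were shared with a prior count of 0.5 and 8 with total counts, and 0 when GBP2 was left out of the mean, a setting added after seeing the data. Depth limits TAP2 most among the 5 genes, as its 26 counts in Large White give wide intervals.

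The promoter motif search and its alternatives were not run. No replicate was left out. No paired analysis was possible because each group has 1 library.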
